A study of Homo sapiens with 12 samples.

Results

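The 45 genes described here are genes of mitosis and of the G2/M transition: cyclins and CDK1, mitotic kinases, the chromosomal passenger complex, the spindle checkpoint, kinetochore proteins, kinesins and other spindle proteins, cytokinesis genes, MKI67 and TOP2A. They were taken from a list of symbols, not by a cut on measured values, and matched to the Ensembl gene IDs of the count data. The list was chosen with earlier results of these data known. All 45 were found among the 57820 gene IDs, and all 45 passed the filter on low counts, which kept 16999 genes. Poly(A) RNA came from AsPC-1, an established human pancreatic cancer cell line. Cells were transfected, with Lipofectamine RNAiMAX, with a control siRNA of scrambled sequence (siControl) or an siRNA against ARNT (siARNT). Each culture was divided the day after; hypoxia means 24 h at 1% O2, normoxia means 21% O2 throughout, and RNA was taken 48 h after transfection. The 2 oxygen levels and 2 siRNAs make 4 groups, each with 3 libraries (A, B and C). The series is about HIF-dependent isoforms, and ARNT encodes the beta subunit shared by the hypoxia-inducible factors (HIF). A single cell line was used, the sequence and number of the siRNAs are not given in the sources used here, and the labels do not say whether a replicate letter follows 1 transfected well, so p-values measure only the spread between these samples, which may be technical.

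Mitotic genes are made in a wave late in the cell cycle. In quiescent and early cycling cells the DREAM complex holds them down, and in late cycle B-MYB and FOXM1, bound with the MuvB core, switch them on through a CHR element (cell cycle genes homology region, letters TTTGAA or a close variant) and CCAAT boxes, which bind NF-Y, near the transcript start. In a culture of mixed phases, the RNA of these genes therefore follows the share of cells in G2 and mitosis as well as the RNA in each such cell. These bulk libraries cannot tell fewer cells in those phases from less RNA per cell.

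The libraries held 38.53 to 84.34 M counts in genes, and each of the 45 genes between 365 and 44545 counts in any library. Levels are given in CPM, counts scaled to the library's total (adjusted by TMM for the 45 genes). ARNT had a mean of 61.7 CPM with siControl and 13.5 CPM with siARNT in normoxia, and of 67.2 and 15.7 CPM in hypoxia. The epithelial markers EPCAM and KRT8 were at least 794 and 1140 CPM in every library. Those of leukocytes, endothelium, acinar cells and islets that were measured stayed at or below 1.02 CPM, with CD3E and INS at 0. Of 6 fibroblast markers, COL1A1, COL1A2, COL3A1, DCN and PDGFRB stayed below 1 CPM, while LUM was between 335 and 571 CPM. Libraries also differed in how counts varied with the GC content of the transcript. The slope in log2 CPM per 10 points of GC ran from -0.205 in normoxia siControl A to 0.424 in normoxia siARNT B, the library that stood farthest apart, with 0.238 in hypoxia siARNT C. The members have a median transcript GC of 43.2% against 47.7% over all genes tested. For each comparison the number of calls with this dependence removed by a smooth offset (GC correction) is also given.

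Hypoxia lowered most mitotic genes in siControl cells. Of the 45 genes, 30 fell and 1 rose at an adjusted p under 0.05 (edgeR quasi-likelihood test, Benjamini-Hochberg adjustment over all 16999 genes). Over all genes tested, 14.9% fell, 10.4% rose and 25.3% were called in either direction. The median log2 change of the 45 genes was -0.37, against 0.02 over all genes, and single changes ran from -0.66 to 0.21. In 35 of the 45 genes each hypoxia siControl library lay below each normoxia siControl library, a pattern seen in 25.3% of all genes. The largest falls, in SPC25, BUB1 and KIF23, took away 34.4 to 36.6% of the RNA, so the change was broad but moderate in size. With GC correction 36 fell and 1 rose, where 38.8% of all genes were called: the 31 calls were kept, and AURKB, PLK1, CDC20, CENPI, KIFC1 and INCENP were called lower in addition.

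**Figure D1:**
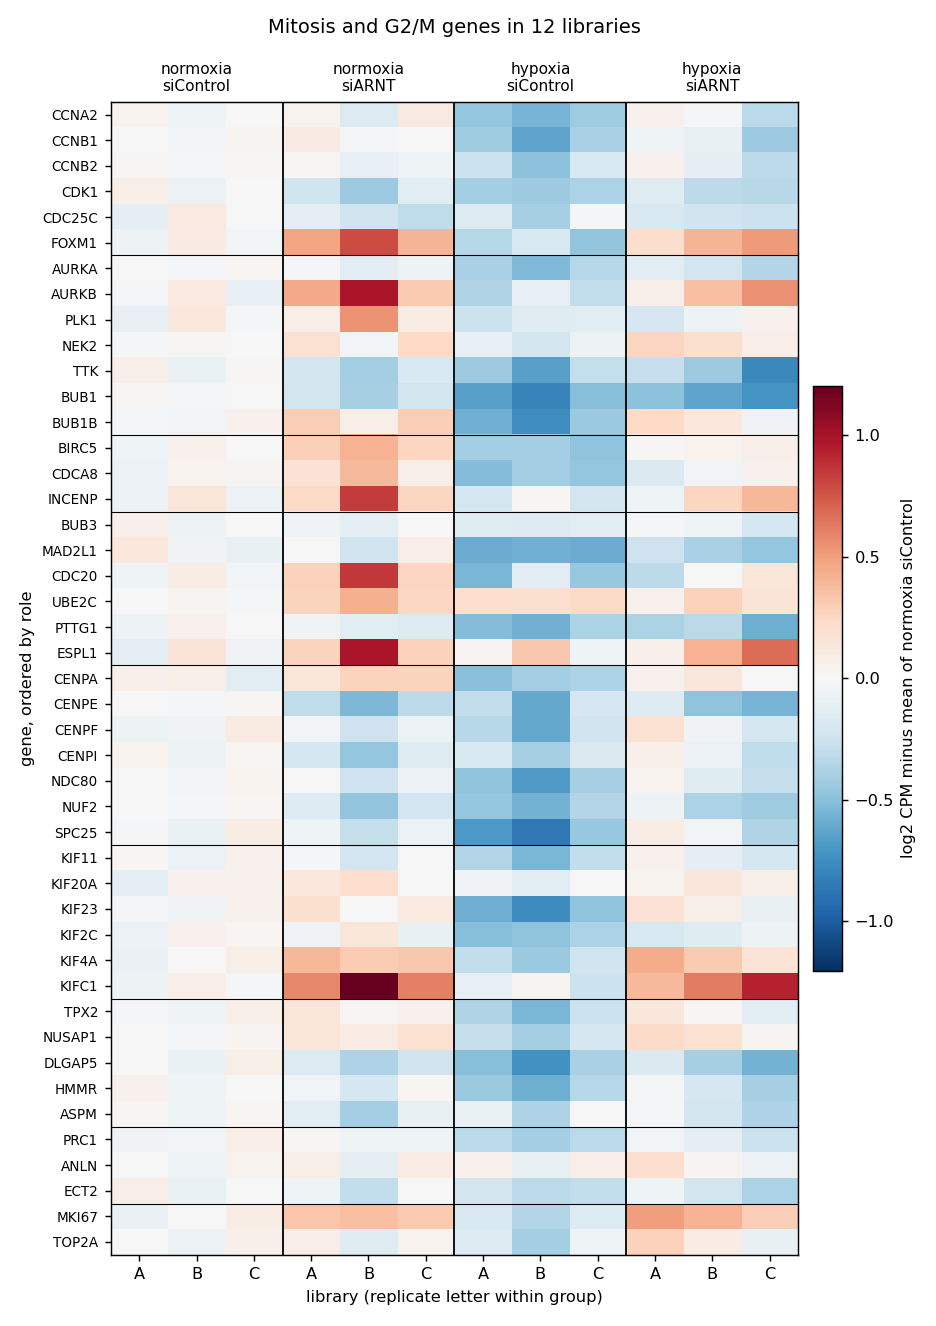
Log2 CPM of each of the 45 genes (rows, ordered by role) in each of the 12 libraries (columns), as the difference from the mean of the 3 normoxia siControl libraries; blue is lower and red is higher. The 3 hypoxia siControl columns are blue for most genes, and normoxia siARNT B holds the darkest red cells, among them KIFC1, ESPL1 and AURKB.

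Among the genes that drive entry into mitosis, 5 of 6 fell with hypoxia in siControl. CCNB1, the cyclin that activates CDK1 at mitotic entry, was at 135, 132 and 137 CPM in normoxia siControl and 100, 86.5 and 103 CPM in hypoxia siControl. The groups did not overlap, and the log2 change was -0.48 (SE 0.10, edgeR adjusted p 0.00337). CDK1 itself was at 170, 154 and 161 CPM in normoxia and 121, 119 and 124 CPM in hypoxia, also without overlap, a log2 change of -0.41 (SE 0.08, edgeR adjusted p 0.00263). CCNA2, the cyclin of S and G2 phase, fell by 0.48 on the log2 scale and CCNB2 by 0.30, the latter a call lost with RLE scaling and when any of 7 single libraries was left out (adjusted p up to 0.153). FOXM1, the transcription factor that activates many late cell cycle genes, was at 42.3, 47.4 and 43.1 CPM in normoxia and 34.9, 38.6 and 31.8 CPM in hypoxia. Its log2 change was -0.34 (edgeR adjusted p 0.0466), close to the threshold, and the call was lost with total count scaling and when any of 7 single libraries was left out. CDC25C, the phosphatase that activates CDK1, did not pass the test (-0.19, edgeR adjusted p 0.204).

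Of the 7 mitotic kinases, 4 fell with hypoxia in siControl. BUB1, a checkpoint kinase that also marks the centromere, was at 98.5, 96 and 97.9 CPM in normoxia siControl and 61.9, 55.9 and 68.3 CPM in hypoxia siControl. This wide gap gave a log2 change of -0.65 (SE 0.08, edgeR adjusted p 0.000187). BUB1B, which encodes the checkpoint protein BUBR1, fell by 0.58 on the log2 scale, and TTK, the kinase that starts checkpoint signalling, by 0.45, the latter lost without any 1 of normoxia siControl A or C or hypoxia siControl A or B (adjusted p up to 0.0884). AURKA, the centrosome and spindle pole kinase, was at 123, 122 and 125 CPM in normoxia and 93.9, 85.2 and 96.8 CPM in hypoxia (log2 change -0.42, edgeR adjusted p 0.000778). AURKB, the kinase of the chromosomal passenger complex, was at 11.3, 12.4 and 10.7 CPM in normoxia and 8.89, 10.7 and 9.29 CPM in hypoxia. One hypoxia library reached the lowest normoxia one, and the log2 change of -0.25 did not pass (edgeR adjusted p 0.328), whereas with GC correction it was -0.31 and did (adjusted p 0.0188). PLK1, a kinase used throughout mitosis, was at 32.2, 37.5 and 33.7 CPM in normoxia and 28.8, 31.1 and 31.3 CPM in hypoxia (-0.18, edgeR adjusted p 0.309, and -0.27, adjusted p 0.0024, with GC correction). NEK2, a centrosome kinase, did not pass (-0.12).

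Kinetochore genes were the role with the most calls in this comparison, with 6 of 7 lower and the groups apart in all 7. SPC25, NDC80 and NUF2 encode 3 subunits of the NDC80 complex, which holds microtubules at the kinetochore. SPC25 was at 19.2, 18.3 and 20.6 CPM in normoxia siControl and 12, 10.7 and 14.1 CPM in hypoxia siControl. It had the largest fall of the 45 genes, a log2 change of -0.66 (SE 0.13, edgeR adjusted p 0.0032). NDC80 fell by 0.52 and NUF2 by 0.46 on the log2 scale. CENPA, the histone variant of the centromere, fell by 0.44, CENPF by 0.39 and the kinetochore motor CENPE by 0.36, while CENPI did not pass the test (-0.25, edgeR adjusted p 0.115, and -0.17, adjusted p 0.0139, with GC correction). The CENPE call was lost with RLE scaling and without any 1 of 8 libraries (adjusted p up to 0.169), and the CENPF call without any 1 of normoxia siControl A or C or hypoxia siControl A or B (up to 0.115).

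Among motors and spindle proteins, 4 of 6 kinesins and 4 of 5 spindle assembly genes fell. KIF23, the motor of the central spindle and midbody, was at 70.1, 68.4 and 73.3 CPM in normoxia siControl and 46.9, 41.6 and 50.4 CPM in hypoxia siControl. The lowest normoxia library held far more than the highest hypoxia one, and the log2 change was -0.61 (SE 0.09, edgeR adjusted p 0.000372). KIF2C, which shortens microtubules at centromeres, fell by 0.46, KIF11, which pushes spindle poles apart, by 0.40 and the chromosome motor KIF4A by 0.33 (lost without normoxia siControl C, adjusted p 0.0547). KIF20A (-0.06) and KIFC1 (-0.10) did not pass, and KIFC1 did with GC correction (-0.22, adjusted p 0.0171). TPX2, an activator of AURKA, fell by 0.39 on the log2 scale, NUSAP1 by 0.30, DLGAP5 by 0.54 and HMMR by 0.46. ASPM, a spindle pole protein, did not pass (-0.14).

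The passenger complex, checkpoint and cytokinesis genes were mixed. BIRC5 (survivin) fell by 0.43 and CDCA8 (borealin) by 0.47 on the log2 scale, while the third passenger gene, INCENP, did not pass (-0.14, edgeR adjusted p 0.596) except with GC correction (-0.29, adjusted p 0.000928). MAD2L1, the checkpoint protein that restrains CDC20, fell by 0.60, and PTTG1 (securin), which holds back separase, by 0.50. CDC20, which directs the anaphase-promoting complex (APC/C), had a change of -0.37 with a wide spread (SE 0.17, edgeR adjusted p 0.143), and one of -0.49 with GC correction that passed (adjusted p 2.26e-05), and ESPL1 (separase) one of 0.10. BUB3, a checkpoint protein, was at 200, 183 and 191 CPM in normoxia and 173, 172 and 174 CPM in hypoxia, a separation of the groups that did not pass the test (-0.14, edgeR adjusted p 0.105). In cytokinesis, PRC1 fell by 0.35 and ECT2 by 0.28, and ANLN (anillin) had a change of 0.01. The ECT2 call was lost with RLE scaling, with DESeq2 and without any 1 of 8 libraries (adjusted p up to 0.178).

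UBE2C ran the other way. This gene encodes the ubiquitin-conjugating enzyme that works with the APC/C, and it was at 53.4, 54.6 and 52.7 CPM in normoxia siControl and 61.4, 61.2 and 62.9 CPM in hypoxia siControl. The groups did not overlap, and it was the only member called higher in hypoxia siControl (log2 change 0.21, SE 0.07, edgeR adjusted p 0.0429). The adjusted p missed the threshold with total count scaling (0.0851), without the filter on low counts (0.223) and when any of 8 single libraries was left out (up to 0.122).

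MKI67 encodes the proliferation marker Ki-67, which coats mitotic chromosomes. It was at 391, 410 and 439 CPM in normoxia siControl and 361, 324 and 368 CPM in hypoxia siControl. The groups lay close but apart, and the log2 change was -0.24 (SE 0.07, edgeR adjusted p 0.0274), a call lost when any of 4 single libraries was left out, with an adjusted p up to 0.147. TOP2A, the topoisomerase that untangles sister chromatids, was at 343, 327 and 358 CPM in normoxia and 305, 258 and 331 CPM in hypoxia. Its groups overlapped, and the log2 change of -0.20 did not pass (edgeR adjusted p 0.199).

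With ARNT reduced, hypoxia moved few of these genes past the test. In siARNT cells 3 of 45 fell past an adjusted p under 0.05 (BUB1, PTTG1 and BIRC5) and 0 rose with hypoxia (edgeR), where 1.89% of all genes fell and 4.09% were called in either direction. The median log2 change was -0.10, against -0.04 over all genes, and 34 of the 45 values were below 0. The groups were apart and lower in 10 of the 45, as in 10.7% of all genes. BUB1 was at 83.8, 74.1 and 83.8 CPM in normoxia siARNT and 69.3, 62.9 and 59.2 CPM in hypoxia siARNT, a log2 change of -0.34 (edgeR adjusted p 0.0461). PTTG1 was at 63.4, 59.7 and 59.2 CPM in normoxia siARNT and 50.6, 52.7 and 43.9 CPM in hypoxia siARNT (-0.31, edgeR adjusted p 0.0471). BIRC5 was at 33.9, 36.9 and 33.2 CPM in normoxia siARNT and 28, 28.5 and 28.9 CPM in hypoxia siARNT (-0.28, edgeR adjusted p 0.0337). In all 3 genes the groups did not overlap. The calls were close to the threshold: leaving out any 1 of 9 libraries gave 0 of 45, and leaving out normoxia siARNT B, hypoxia siControl B or hypoxia siControl C gave 2. With GC correction, 16 fell and 0 rose and 18.3% of all genes were called. CDC20, PLK1 and MAD2L1 had changes of -0.53, -0.32 and -0.32 without a call, that of CDC20 being the largest fall of the 45. They were called with GC correction, at -0.41, -0.21 and -0.40.

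**Figure D2:**
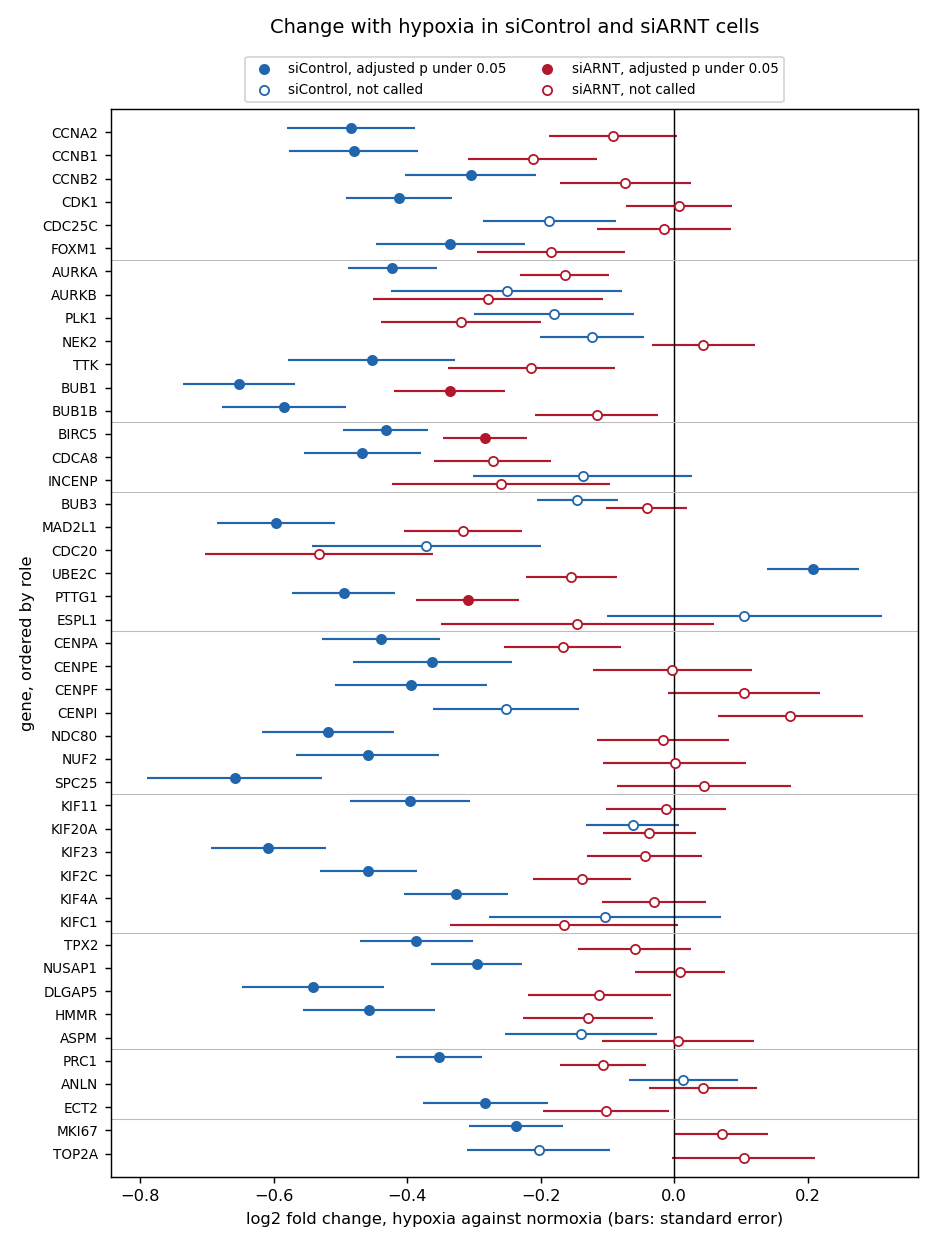
Log2 fold change with hypoxia of each of the 45 genes in siControl cells (blue) and siARNT cells (red), with the standard error as a bar; filled points passed an adjusted p under 0.05. In siControl cells 30 filled points lie below 0 and 1, UBE2C, above it, and in siARNT cells 3 points are filled.

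Whether the hypoxia change differs between the siRNAs was tested directly. For each gene the change in siControl was subtracted from the change in siARNT (the interaction). Values were above 0 in 38 of 45 genes, with a median of 0.27 against -0.02 over all genes, but only KIF23 passed (edgeR), where 4.69% of all genes did. DESeq2 called 6 of 45, with 7.86% of all genes called. At an unadjusted p under 0.05 there were 23 of 45, a count without a share of all genes to set it against. KIF23 had a hypoxia change of -0.61 in siControl and -0.04 in siARNT, where it was at 80.6, 70.3 and 76.3 CPM in normoxia and 79.6, 74.3 and 66.5 CPM in hypoxia. The difference was 0.565 (SE 0.12, edgeR adjusted p 0.0257). It was 0.49 to 0.64 when single libraries were left out. The adjusted p then rose past the threshold for 8 of 12 libraries, up to 0.0865 without normoxia siControl C. With GC correction the KIF23 difference was smaller, 0.39 (edgeR adjusted p 0.00147). The median over the 45 genes was then 0.15, against -0.05 over all genes. SPC25 had the largest difference, 0.70, with an adjusted p of 0.0531, and CDK1 (0.42, adjusted p 0.0579) and UBE2C (-0.36, adjusted p 0.0563) also lay just outside the threshold (edgeR). All 7 kinetochore genes had differences above 0, from 0.27 to 0.70 with a median of 0.46. The spindle checkpoint and anaphase genes ran from -0.36 to 0.28, with a median of -0.03. With GC correction the kinetochore genes ran from 0.16 (CENPA) to 0.53 (SPC25). The checkpoint and anaphase genes then ran from -0.43 (UBE2C) to 0.11 (MAD2L1). No test was run between roles. The count of calls moved with the scaling and with single libraries. With total count scaling 17 were above 0 and called (8.79% of all genes called). With GC correction 11 above and 1 below 0 were called (13.8% of all genes called). Calls above 0 numbered 10 without hypoxia siARNT C, 3 without hypoxia siControl C and 2 without normoxia siARNT B. Of all genes, 6.83%, 5.66% and 4.36% were called in these 3 fits. The count was 0 without any 1 of normoxia siControl A, B or C, hypoxia siControl A or B, or hypoxia siARNT A or B.

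Within normoxia, the share of members called with the ARNT siRNA was near that of all genes. Of 45 genes, 7 rose and 3 fell (22.2% called, edgeR). Over all genes, 9.42% rose, 10.8% fell and 20.2% were called in either direction. The median log2 change was 0.00. KIFC1, a minus-end kinesin that bundles spindle poles, was at 15.8, 17.5 and 16.4 CPM in normoxia siControl and 24.7, 38.1 and 25.1 CPM in normoxia siARNT. Library B was the highest and all 3 lay above the siControl group, with a log2 change of 0.82 (SE 0.17, edgeR adjusted p 0.00735), or 0.58 (adjusted p 0.0114) without normoxia siARNT B. AURKB was at 15.7, 22.7 and 14.2 CPM with siARNT, again highest in library B, a log2 change of 0.61 (edgeR adjusted p 0.0288). Without that library its change was 0.38 and no longer passed (edgeR adjusted p 0.0898). The AURKB call was also lost without any 1 of normoxia siControl A, B or C (edgeR adjusted p up to 0.111). With only the samples compared it was lost too (edgeR adjusted p 0.0559). FOXM1 was at 61.4, 76.2 and 58.6 CPM with siARNT, above all siControl libraries (0.56, edgeR adjusted p 0.00521), and at 0.43 (adjusted p 0.0109) without library B. KIF4A rose by 0.34 on the log2 scale, MKI67 by 0.34, BIRC5 by 0.32 and UBE2C by 0.32. The calls of KIF4A and MKI67 were lost without normoxia siControl A (adjusted p 0.0713 and 0.0559) and that of UBE2C without normoxia siControl C (0.0527).

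The 3 genes that fell with siARNT in normoxia were CENPE, BUB1 and CDK1. CENPE was at 89.9, 88.7 and 90.4 CPM in normoxia siControl and 72.4, 61.8 and 71.9 CPM in normoxia siARNT (log2 change -0.38, edgeR adjusted p 0.0412). CDK1 was at 137, 119 and 147 CPM with siARNT (-0.27, edgeR adjusted p 0.0355), and BUB1 had a change of -0.28 (edgeR adjusted p 0.0376). Their siARNT groups lay wholly below siControl, with library B lowest in each. These transcripts have 35.3% to 42.5% GC, whereas those of KIFC1, AURKB and FOXM1 have 55.6% to 58%. With GC correction the split became 22 higher and 0 lower, where 29.4% of all genes were called. CENPE, BUB1 and CDK1 were at -0.19, -0.07 and -0.06 without a call, and KIFC1, AURKB and FOXM1 stayed called at 0.53, 0.44 and 0.40. The calls of the 3 falls thus depended on this step, and those of the 3 rises did not, although each rise was smaller with it. Leaving out a single library also moved the count of 10 by more than 1.5 times in 4 cases: it was 4 without normoxia siControl A, 5 without normoxia siControl C, and 6 without normoxia siControl B or normoxia siARNT B, all of them rises. PLK1 with siARNT was at 36.4, 49.9 and 36.5 CPM and AURKA at 121, 113 and 118 CPM, and neither passed (0.25 and -0.07).

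Within hypoxia, the siARNT cells held more RNA of many mitotic genes. Here 21 of 45 rose and 0 fell (edgeR), where 14.4% of all genes rose and 29.1% were called in either direction. The median log2 change was 0.30, against 0.02 over all genes, and values were above 0 in 40 of 45. Kinesins led, with 5 of 6 called and the groups apart and higher in all 6, as in 20% of all genes. KIFC1 was at 15.4, 17 and 13.8 CPM in hypoxia siControl and 21.7, 25.4 and 31.4 CPM in hypoxia siARNT, without overlap (log2 change 0.76, SE 0.17, edgeR adjusted p 0.00621). FOXM1 was at 51.2, 58.6 and 62.9 CPM in hypoxia siARNT, each well above the hypoxia siControl libraries (0.71, SE 0.11, edgeR adjusted p 0.000556). BUB1B was at 48.3, 43 and 53 CPM in hypoxia siControl and 84.9, 78.9 and 70.1 CPM in hypoxia siARNT, a clear gap (0.70, SE 0.09, edgeR adjusted p 0.000166). AURKB was at 11.9, 14.7 and 16.8 CPM in hypoxia siARNT, above each hypoxia siControl library, and rose by 0.59 (edgeR adjusted p 0.0245). KIF23 rose by 0.67, KIF4A by 0.64, SPC25 by 0.57, CENPA by 0.50 and BIRC5 by 0.47 on the log2 scale.

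MKI67, at 521, 530 and 514 CPM in normoxia siARNT, was at 585, 551 and 508 CPM in hypoxia siARNT, above all 3 hypoxia siControl libraries, with a log2 change of 0.64 (SE 0.07, edgeR adjusted p 4e-05). CCNB1 was at 130, 127 and 99.3 CPM in hypoxia siARNT, with library C inside the range of hypoxia siControl, and was called (0.30, edgeR adjusted p 0.0357). That call was lost when any of 7 single libraries was left out. BUB1 was at nearly the same level in hypoxia with either siRNA (0.04, 95% interval -0.15 to 0.23), and its groups overlapped. AURKA was at 112, 105 and 96.8 CPM in hypoxia siARNT (0.19, edgeR adjusted p 0.0553) and CDK1 at 146, 130 and 128 CPM (0.15), neither of them called. TOP2A was at 362, 309 and 353 CPM in normoxia siARNT and 415, 363 and 322 CPM in hypoxia siARNT, a range that overlapped every other group (0.30 in hypoxia, edgeR adjusted p 0.0554). BUB3 was at 185, 178 and 191 CPM and at 188, 185 and 165 CPM in these groups, and PLK1 in hypoxia siARNT at 29.8, 32.9 and 35.7 CPM. Both overlapped hypoxia siControl and were not called (0.05 and 0.11). With GC correction, 34 rose and 0 fell, where 42.9% of all genes were called. AURKA (0.20, adjusted p 0.0009), CDK1 (0.23, adjusted p 0.0023) and TOP2A (0.35, adjusted p 4.4e-05) were then among those called. Scaled by total counts instead, 28 rose and 0 fell, with 32% of all genes called and a median of 0.10 over all genes. Calls of AURKB, CENPF, NDC80, KIF11, PRC1 and NEK2 were each lost without 1 or more of the hypoxia libraries (adjusted p up to 0.117). A group of 11 genes, TOP2A, PLK1, BUB3, CDC20, CENPI, KIF20A, ANLN, INCENP, ESPL1, CDC25C and ASPM, was called in none of the 5 comparisons without GC correction, and BIRC5 was called in 4. With GC correction 8 of the 11 were called in at least 1 comparison, and BUB3, CDC25C and ASPM in none.

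**Figure D3:**
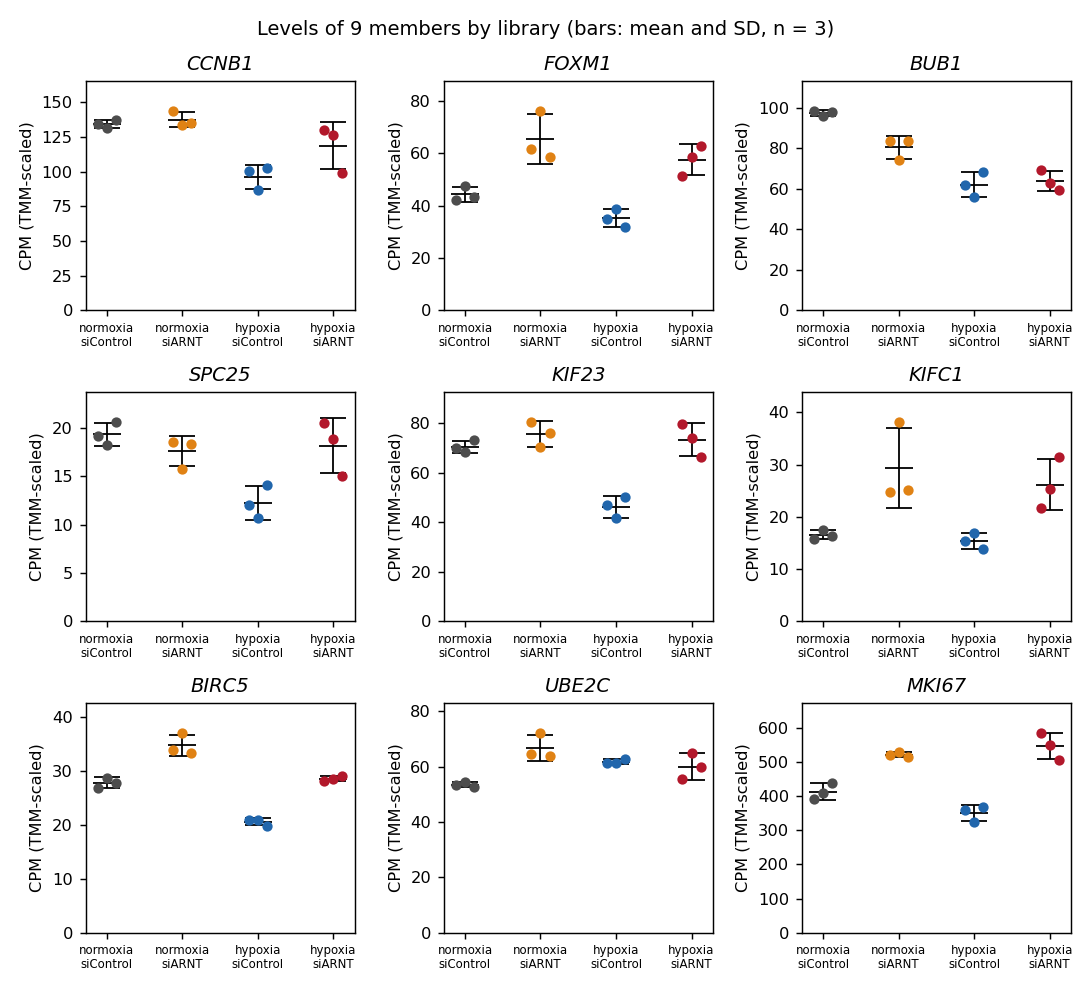
CPM of 9 of the genes in each library (points), with the mean and SD of the 3 libraries of a group as bars, on axes that start at 0. KIF23 and SPC25 are low in hypoxia siControl alone, BUB1 is low in both hypoxia groups, and UBE2C is lowest in normoxia siControl.

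Promoters of these genes are shown because most members fell together with hypoxia. RefSeq windows of GRCh38.p14, from 250 bases before to 50 bases after a transcript start, were at hand for 38 of the 45 genes, with 45 windows in all. Below are stretches of 4 of them, 5′ to 3′ on the strand of the gene. Capitals mark TTTGAA (CHR) and CCAAT on either strand, so that TTCAAA and ATTGG are capitals too. KIF23, SPC25 and BUB1 are the members with the largest falls and MKI67 is described above; the stretches lie at chr15:69414199-69414378 (plus strand), chr2:168890401-168890580 (minus), chr2:110678034-110678213 (minus) and chr10:128126394-128126573 (minus).
KIF23: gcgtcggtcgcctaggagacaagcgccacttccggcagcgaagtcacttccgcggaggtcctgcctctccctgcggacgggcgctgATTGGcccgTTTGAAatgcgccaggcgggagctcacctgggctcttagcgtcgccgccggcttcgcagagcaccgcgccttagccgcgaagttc
SPC25: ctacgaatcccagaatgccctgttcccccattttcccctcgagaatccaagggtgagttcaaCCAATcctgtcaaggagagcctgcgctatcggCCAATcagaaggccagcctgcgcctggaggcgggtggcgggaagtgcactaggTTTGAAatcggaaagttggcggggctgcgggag
BUB1: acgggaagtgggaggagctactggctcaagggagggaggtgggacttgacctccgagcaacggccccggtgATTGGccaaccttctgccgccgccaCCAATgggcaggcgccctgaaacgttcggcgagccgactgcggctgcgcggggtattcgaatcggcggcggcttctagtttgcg
MKI67: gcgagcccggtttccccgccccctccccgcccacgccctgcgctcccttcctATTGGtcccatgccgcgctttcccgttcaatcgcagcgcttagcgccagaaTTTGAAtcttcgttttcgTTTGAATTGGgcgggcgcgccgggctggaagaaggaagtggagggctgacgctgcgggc

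The windows of SPC25 and MKI67 hold each motif in 2 copies, with 1 TTTGAA of SPC25 outside the stretch shown, and in MKI67 the last TTTGAA overlaps an ATTGG. KIF23 has 1 of each, close together, and BUB1 has 2 CCAAT boxes and no TTTGAA in its window. Over the 38 genes, 28 (73.7%) held TTTGAA on either strand, against 18.2% of the 27305 genes of the table. CCAAT was held by 31 (81.6%), against 39.7%, and 2 or more copies of it by 22 (57.9%), against 12.9%. Both motifs were held by 24 (63.2%), against 7.26%. The variant TTTAAA was held by 13 (34.2%), against 14.5%. The core letters of the HIF element, ACGTG or GCGTG, were held by 25 (65.8%), against 52.4% of all genes. Of the 25 genes with a window that fell with hypoxia in siControl, 19 held TTTGAA, and of the other 13 genes 9 did, so the motif was also present in most genes that did not fall. A match of letters is a description and does not show that a factor binds there.

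**Figure D4:**
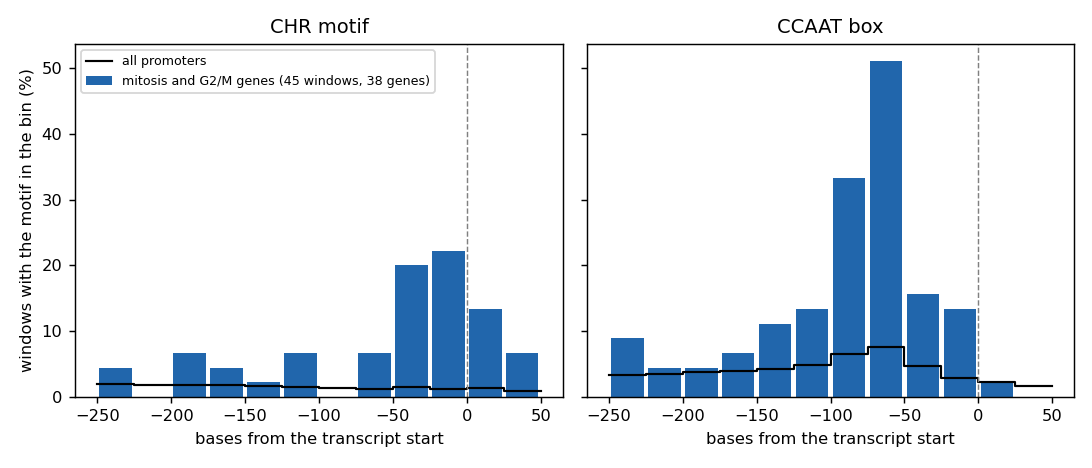
Share of promoter windows with the CHR motif (left) or a CCAAT box (right), on either strand, in bins of 25 bases by distance from the transcript start, for the 45 windows of the mitotic genes (bars) and for all windows of the table (line). The CHR motif is most frequent in the 50 bases before the start, and CCAAT boxes between 100 and 50 bases before it, with 51.1% of the windows in the highest bin.

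Other genes of the same processes, from lists that leave out the 45, were tested in the same fit, and their counts stand against the same shares of all genes (14.9% lower and 10.4% higher with hypoxia in siControl). Of 29 further kinetochore and centromere genes, 22 fell and 1 rose with hypoxia in siControl (edgeR, median log2 change -0.42). CENPP (-0.99) and SKA1 (-0.84) fell most, and CENPT, which ties the inner to the outer kinetochore, rose (0.59). Of 20 condensin and cohesin genes, which fold and hold chromosomes, 10 fell and 0 rose, with NCAPH (-0.74) and NCAPD3 (-0.69) lowest. Of 23 further spindle and cytokinesis genes 8 fell, among them KIF15 (-0.66) and CEP55 (-0.53). Of 16 regulators of mitotic entry 9 fell and 1, LATS2, rose, with the histone kinase HASPIN at -1.07 and the phosphatase CDC25A at -0.84. Of 22 genes of the APC/C and mitotic exit 8 fell, with the APC/C subunit ANAPC7 at -0.68.

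Regulators of the wave were tested as well. Of 12 genes of DREAM, MuvB and B-MYB, 5 fell with hypoxia in siControl, led by LIN52 (-0.86), a MuvB subunit, and RBL1 (-0.66), which encodes p107. MYBL2, which encodes B-MYB, was not called (-0.22). Of 17 CDK inhibitors and arrest genes, 1 rose and 2 fell with hypoxia in siControl, 17.6% called against 25.3% of all genes. CCNG2, a cyclin linked to arrest, rose from 30.8 ± 1.05 to 64.3 ± 4.14 CPM (SD, n = 3; log2 change 1.06, edgeR adjusted p 4.06e-06), and CDKN1A, which encodes p21, was not called (0.06). In siARNT cells CCNG2 rose from 22 ± 1.7 to 32.2 ± 2.45 CPM, by 0.55 (edgeR adjusted p 0.00507), and the difference between the changes passed the test (-0.51, edgeR adjusted p 0.0278).

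Genes of DNA replication and the G1/S transition, which act earlier in the cycle, also fell. Of 48 tested, 40 fell and 0 rose with hypoxia in siControl (edgeR), with a median log2 change of -0.61. MCM10, which acts at replication origins, had the largest fall (-1.02). In siARNT cells 14 of 48 fell with hypoxia (1.89% of all genes), the median being -0.26. The interaction was above 0 and called in 24 of 48 (2.49% of all genes). Mean log2 CPM over the genes of each list, set against normoxia siControl, put the hypoxia siControl libraries at -0.62, -0.56 and -0.57 for replication and at -0.33, -0.41 and -0.27 for mitosis. The hypoxia siARNT libraries were at -0.09, -0.05 and -0.01 for replication and at 0.01, -0.03 and -0.12 for mitosis. Both lists were therefore lowest in all 3 hypoxia siControl libraries, and no test was run between the lists.

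With siARNT in hypoxia, calls in the further lists were mostly rises, except among CDK inhibitors and arrest genes. Of 17 of these, 2 rose and 5 fell (edgeR), 41.2% called against 29.1% of all genes. In hypoxia 38 of 48 replication genes rose and 1, CDK6, fell, and 19 of 29 kinetochore genes rose and 0 fell (edgeR), where 14.4% of all genes rose and 14.7% fell. SMC1A, a cohesin subunit, had a mean of 105 ± 1.37 CPM with siControl and 192 ± 2.96 CPM with siARNT in normoxia (SD, n = 3). In hypoxia these means were 77.1 ± 1.26 and 188 ± 2.94 CPM. It rose with siARNT by 0.88 in normoxia and 1.29 in hypoxia on the log2 scale (edgeR adjusted p 2.86e-07 and 5.35e-09). CDC26, a small APC/C subunit, was at 7.35 ± 0.465 and 6.9 ± 0.296 CPM in the siControl groups and 2.2 ± 0.205 and 2.25 ± 0.106 CPM in the siARNT groups (normoxia first). Its log2 changes with siARNT were -1.74 and -1.62 (edgeR adjusted p 1.15e-06 and 8.75e-07). In normoxia 4 of 23 spindle and cytokinesis genes rose and 1 fell, 21.7% called against 20.2% of all genes. Of 48 replication genes 18 rose and 4 fell there, 45.8% called, with a median log2 change of 0.20 against 0.01 over all genes. Kinetochore genes had 5 rises and 1 fall among 29 (20.7% called), and DREAM, MuvB and B-MYB genes 3 of each among 12 (50% called).

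One member also changed in splicing. MKI67 has a coding exon of 1080 bases (360 codons), which is exon 7 of 15 in the transcript MKI67-202 at chr10:128114928-128116007 (GRCh38, GENCODE 29, minus strand) and is absent from MKI67-201. The long and short forms of Ki-67 differ by this exon. The junctions that include or skip it read as follows, 20 bases to each side, with the bases of this exon in capitals.
Upstream exon to long exon: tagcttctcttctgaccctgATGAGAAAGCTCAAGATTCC
Long exon to downstream exon: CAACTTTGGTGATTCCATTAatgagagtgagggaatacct
Upstream exon to downstream exon: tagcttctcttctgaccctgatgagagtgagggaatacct

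The deposited splicing events give this exon at chr10:129913192-129914271 in a build that they do not name and that differs from GRCh38 here, and it was matched to the annotation by the lengths of the exon and its neighbours. Reads that span the 2 inclusion junctions (averaged) and the skipping junction give the share of inclusion. In normoxia siControl it was 75.4%, 73.2% and 78.1%, and in hypoxia siControl 90.5%, 85.8% and 85.3%. In normoxia siARNT it was 59.4%, 56.5% and 58.3%, and in hypoxia siARNT 59.6%, 60.5% and 57.2%. All siARNT libraries thus lay below all siControl libraries, and the 2 siControl groups did not overlap. The skipping junction held between 16 and 188 reads in a library, and the lowest count was in hypoxia siControl B.

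**Figure D5:**
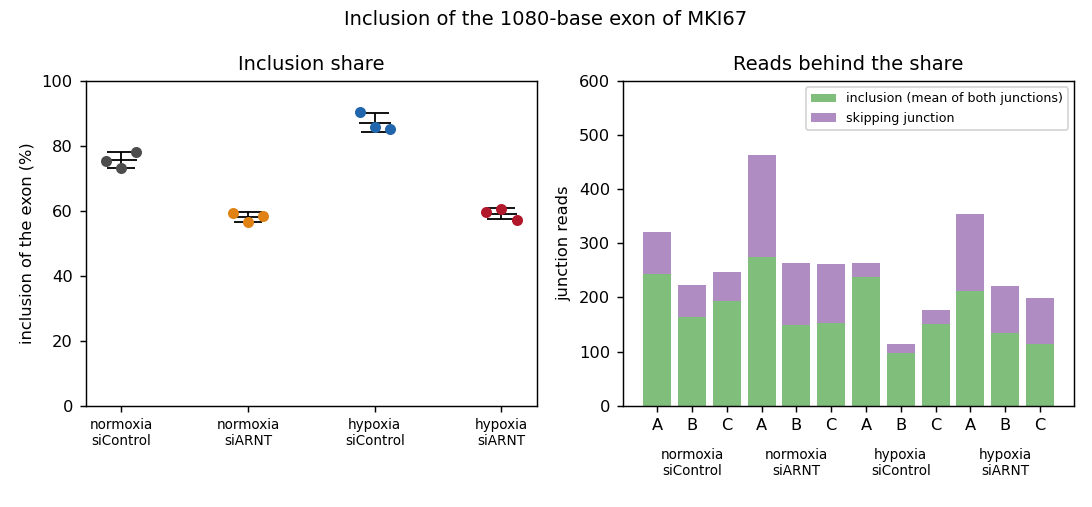
Left, inclusion of the 1080-base exon of MKI67 in percent in each library (points), with the mean and SD of each group; right, the junction reads behind it, with inclusion (mean of both junctions) below and skipping above. Inclusion is between 85.3% and 90.5% in hypoxia siControl and between 56.5% and 60.5% in the 6 siARNT libraries.

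The fall of inclusion with siARNT passed the test in both oxygen conditions. The log2 odds of inclusion changed by -1.15 in normoxia (SE 0.15, edgeR adjusted p 0.00382 over 20301 exon skips) and by -2.31 in hypoxia (SE 0.20, edgeR adjusted p 0.000495). Limma on the logit of the share did not call the normoxia change (adjusted p 0.358). Neither did edgeR with an estimated negative binomial dispersion (adjusted p 0.328). Both fits recovered 0% of changes of 1 or 2 in log2 odds in simulated data. The spread between libraries in those data was set by hand, not taken from these libraries. The check therefore cannot decide whether the 2 fits missed the normoxia change or it is absent. With siARNT in hypoxia, limma called 1 of the 108 member exon skips tested. The rise with hypoxia in siControl, 75.6% ± 2.49 to 87.2% ± 2.87 (SD, n = 3), did not pass (log2 odds 1.22, SE 0.22, edgeR adjusted p 0.0657), and hypoxia in siARNT changed the odds by 0.06 (edgeR adjusted p 0.993). The difference between the hypoxia changes was -1.16 (unadjusted p 0.000634, edgeR adjusted p 0.975). This exon was singled out after its values had been seen.

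By mean read count, the MKI67 event first in line was another exon of 122 bases. It was included at 1.8% to 6.1% in single libraries and was called in no comparison. In all, 38 members had 119 exon skips, of which 108 in 36 members had enough reads to test. The 1080-base exon was the only one of the 108 called with siARNT in normoxia and the only one in hypoxia, where 0.325% and 0.207% of all exon skips were called. No member event was called with hypoxia in siControl, where 0.0985% of all were (edgeR; 11 of 108 at an unadjusted p under 0.05, and 0 by limma). None was called with hypoxia in siARNT (0.0493% of all, 3 of 108 unadjusted, 0 by limma). None was called in the interaction either (0.0246% of all, 7 of 108 unadjusted, 0 by limma). The unadjusted counts have no share of all exon skips to set them against. Limma recovered 0% of changes of 1 or 2 in log2 odds in simulated data whose spread was set by hand. Its counts of 0 do not show that changes were absent.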

How the data were processed

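RNA of 12 libraries was analysed. The authors deposited whole-number read counts per gene ID and library; Trimmomatic, STAR 2.4.2a and GRCh38.p10 are named in the submitters' processing notes, and the counter's version and settings are not given in the sources used here. Lines that name no gene held 22.71 to 25.2% of a library and were left out. The deposited splicing table gives junction read counts and, per the file headers, the inclusion share as a fraction, which recomputation from the counts matched to within 0.005 for 287817 values; no value column was without a sample (0). The deposited exon coverage of that table, a signal per the file headers, was not used. Symbols came from a table of gene names (51996 of 57820 IDs).

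Gene counts were fitted with edgeR 4.0.16 (R 4.3.3): TMM scaling, filterByExpr, robust quasi-likelihood over all 12 libraries with 1 mean per group, Benjamini-Hochberg adjustment within each of 5 comparisons, called at 0.05. CPM is TMM-scaled, except for ARNT and the cell type markers, which are scaled by total gene counts. Standard errors are the log2 change over the root of F, and intervals are at 95%. GC dependence was removed in an alternative by a natural spline of 5 degrees of freedom per library. Exon skips needed 10 junction reads in every library, and 10 of each form over all; they were fitted with edgeR with 1 intercept per library. A first fit with an estimated negative binomial dispersion was run and seen on these data. It failed a check on simulated data, with 0% of changes of 1 or 2 in log2 odds recovered. It was then replaced by a fit without that dispersion (quasi-binomial). The replacement recovered 11% of changes of 1 and 69% of changes of 2, and 8.05% of its calls were false. Limma recovered 0% of either size. In this check the spread between libraries was set by hand, not taken from these data. Changes were placed only in well-covered events of middling inclusion. Gene tests were checked on simulated data too. The main fit recovered 22% of log2 changes of 0.5 and 58.6% of changes of 1, and 4.76% of its calls were false. This check changed 200 of 16805 genes, whereas 25.3% of all genes were called with hypoxia in siControl. Its recovery rates therefore need not hold for the mitotic genes. In that comparison their largest change without a call was that of CDC20 (-0.371). Elsewhere larger ones were not called, such as CDC20 with hypoxia in siARNT (-0.532) and ESPL1 with siARNT in normoxia (0.544). Such a change without a call is not shown to be absent. Alternatives used DESeq2 1.42.0 and limma 3.58.1.

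The genes and lists were chosen with earlier results of these data known. Each of the 45 could be named. Values in every library were given for 9 fixed genes and, in each comparison, the 3 called members with the largest rise and fall; from other lists, the 2 called genes with the largest rise and fall could be named. MYBL2 and CDKN1A are named in addition, after their values were seen. Same-letter libraries deviated together by a correlation over 0.1 in only some pairs (-0.431 to 0.52), and the labels do not say that a letter marks a culture, so letters were not used as pairs.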

Additional observations from a re-analysis of the deposited data

Results flagged for a closer look

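KIF23, the motor of the central spindle, had a hypoxia change in siARNT that exceeded that in siControl by 0.565 on the log2 scale (edgeR adjusted p 0.0257), the only one of the 45 genes for which this difference between the siRNA groups passed the test. The difference had the same sign when each of the 12 libraries was left out in turn, from 0.493 to 0.639. With GC correction it was smaller, 0.391 (edgeR adjusted p 0.00147).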

How the results depend on the processing

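Each member held at least 365 counts in every library, whereas the skipping junction of MKI67 held as few as 16 reads. Of 31 calls with hypoxia in siControl, 22 were made in every alternative run, as were 14 of 21 with siARNT in hypoxia, 3 of 10 with siARNT in normoxia, 0 of 3 with hypoxia in siARNT and 0 of 1 in the interaction. Hypoxia in siARNT (3 calls) gave 1 with RLE scaling, 0 without the filter, with a block for the transfected culture or with only the samples compared, and 16 with GC correction (17 with GC correction and the replicate block). siARNT in normoxia (10) gave 22 and 24 with GC correction without and with the replicate block, and siARNT in hypoxia (21) gave 34 in both. The interaction (1) gave 17 with total count scaling, 6 with DESeq2, 2 without the filter, 6 with the replicate block, and 12 and 13 with GC correction without and with that block. The shares of all genes called in these fits were 8.79%, 7.86%, 1.52%, 5.65%, 13.8% and 15.6%. With the replicate block the other counts were 32, 3, 14 and 25, first for hypoxia (siControl, then siARNT cells) and then for siARNT (normoxia, then hypoxia). Leaving out single libraries gave 22 to 32, 0 to 2, 4 to 13 and 15 to 27 calls in the same order, and 0 to 10 in the interaction. The cause was not tested.

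For exon skips of the members, hypoxia in siControl gave 1 call with summed junctions and 1 with the replicate block, and siARNT in normoxia 0 with limma and 0 with the negative binomial dispersion, an alternative added after the data were seen. The 1080-base exon of MKI67 passed with hypoxia in siControl with summed junctions (1.218, adjusted p 0.0494) and the replicate block (1.207, adjusted p 0.0388). With siARNT in normoxia it did not pass with limma (-1.158) or the negative binomial dispersion (-1.163). Both of these fits recovered 0% of changes of 1 or 2 in log2 odds in simulated data whose spread was set by hand. Leaving out single libraries gave 0.918 to 1.391 for hypoxia in siControl, 0.023 to 0.112 for hypoxia in siARNT, -1.224 to -1.062 for siARNT in normoxia, -2.48 to -2.007 for siARNT in hypoxia and -1.331 to -0.858 for the interaction. For the 122-base exon, which was never called, the ranges were -0.01 to 0.469, 0.13 to 0.741, -0.66 to -0.048, -0.387 to 0.092 and -0.091 to 0.539, in the same order of comparisons; the negative low values of the first and last (down to -0.01, and -0.072 and -0.091) and the positive ones of the fourth (0.019 and 0.092) are changes of sign.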
